A study of Drosophila melanogaster and Drosophila mauritiana and Drosophila simulans with 22 samples.

Results

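Testis RNA of 2 sister species of the D. simulans group, Drosophila mauritiana and D. sechellia, was compared on 7 of the 22 arrays of the series. These were the 4 arrays titled as D. mauritiana testes and the 3 titled as D. sechellia testes. The flies were 4-day-old males kept at 25 °C under a light and dark cycle on cornmeal and molasses medium. D. mauritiana was strain 14021-0241.1, and D. sechellia was listed as strain #12 on arrays 1 and 2, with no strain given for array 3. Each array carried amplified RNA of a pool of 200 testes, dissected without accessory glands and labelled with Cy5, against RNA of whole D. melanogaster males (strain 14021-0231.00) labelled with Cy3, without a dye swap. A value is therefore a log2 ratio of testes over whole D. melanogaster males, centred on the array's median. A centred value of 0 is the array's median and not equality with the whole-fly reference. The medians subtracted were −0.30 to 0.06 on the mauritiana arrays and 0.75, −0.46 and −0.14 on sechellia arrays 1, 2 and 3. The other arrays of the series carried testes of D. melanogaster (strain 14021-0231.00) and D. simulans (strain 14021-0251.2) and of the sons of D. simulans females by males of the other 3 species. Of 6793 genes with rows of 1 symbol, 5950 had values on 2 or more arrays of both species and were tested, and 3866 of these had a value on all 7 arrays.

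In the fly testis, germline stem cells give rise to spermatogonia, which divide and become spermatocytes. Spermatocytes transcribe most of what the later stages need, under testis-specific transcription complexes, and a small set of genes is transcribed again after meiosis, while spermatids elongate. Elongation builds a flagellum beside fused mitochondria, and individualisation then strips away the remaining cytoplasm with the help of ubiquitin ligases and proteasomes. In RNA of whole testes, fewer cells of a stage and less RNA per cell cannot be told apart. The reference RNA and the gene names on the array are those of D. melanogaster, so a weaker match of a species' RNA to a spot and a lower RNA level cannot be told apart either.

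The D. sechellia arrays stood apart from the other arrays. Across the tested genes, which are not independent replicates, the mauritiana arrays correlated with each other at r between 0.71 and 0.87. The sechellia arrays correlated with each other at only 0.22, 0.37 and 0.54. Sechellia array 1 was at −0.0039 to 0.29 with the mauritiana arrays, and sechellia arrays 2 and 3 at 0.42 to 0.55. The SD between spots of the same gene on an array was 0.20 to 0.38 for mauritiana and 1.17, 1.63 and 1.57 for sechellia, and on no array of another group did it pass 0.47. Deposited values above 3.5 made up 9.92, 6.06 and 9.40% of the spots on sechellia arrays 1, 2 and 3, and values below −3.5 made up 0.53, 17.1 and 10.4%. On the mauritiana arrays neither share passed 2.26%. Below, a spot beyond 3.5 in size is called an outer spot. The main counts, the cup and comet, P450 and glutathione S-transferase counts and most named genes with sechellia outer spots are given with and without them. Other named genes are said to be untestable without them (fewer than 2 arrays of a species left). Counts apart and medians of the other lists include outer spots. Such sechellia spots were in 13 of 23 cytoplasmic ribosomal protein genes, 20 of 40 of oxidative phosphorylation and 19 of 42 mitochondrial ribosomal proteins.

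**Figure D1:**
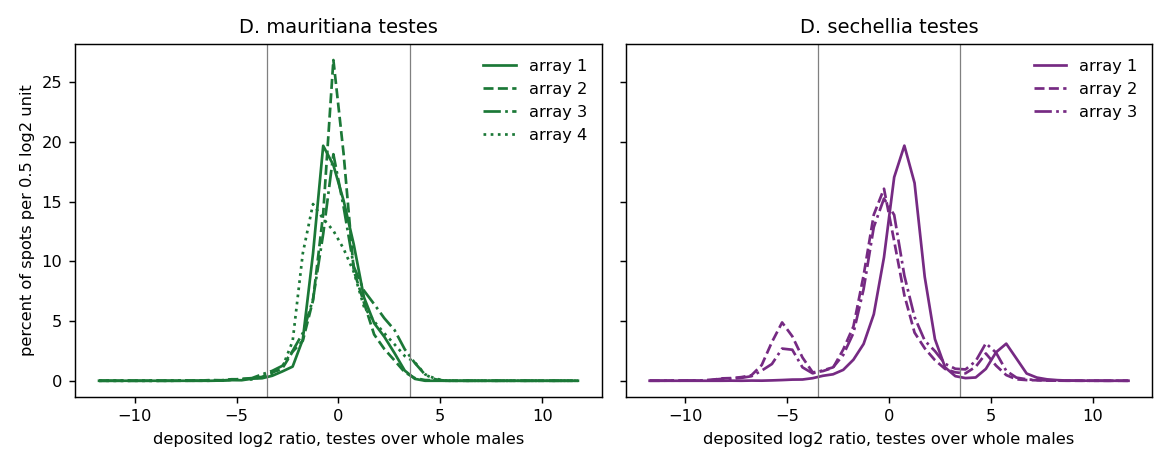
Distribution of the deposited log2 ratios on each array, as the percent of spots in steps of 0.5 log2 units, for the 4 D. mauritiana arrays (left) and the 3 D. sechellia arrays (right); grey lines mark a size of 3.5. The mauritiana arrays have 1 central peak, while sechellia arrays 1, 2 and 3 have a further peak above 3.5 (9.92, 6.06 and 9.40% of spots) and arrays 2 and 3 another below −3.5 (17.1 and 10.4%).

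Between the 2 species, 158 of 5950 genes differed at a Benjamini-Hochberg adjusted p under 0.05 in limma (2.66%). Of these, 84 were higher in mauritiana (1.41%) and 74 were higher in sechellia (1.24%), and in all 158 the arrays of one species lay wholly above those of the other. Among all genes tested, every mauritiana array lay above every sechellia array in 757 genes (12.7%), and the reverse held in 677 (11.4%). An exact permutation test of 4 against 3 arrays has 35 arrangements and cannot give a two-sided p below 0.0571, so single genes rest on limma. The 84 genes higher in mauritiana had a median difference of 2.97 log2 units, with a range of 1.84 to 6.57, and 82 of them were measured on all 7 arrays. The 74 genes higher in sechellia had a median difference of −4.97, with a range of −2.16 to −6.59, and 37 of them had values on only 2 sechellia arrays. The median difference of all genes was 0.22. A sechellia outer spot was present in 15 of the 84 genes higher in mauritiana, in 73 of the 74 higher in sechellia, and in 43.0% of all genes tested. Outer spots were also set to missing, a setting chosen after seeing the data. Of the 84, 76 could still be tested and all 76 were called again. Of the 74, 16 could be tested and 3 were called again. The rule removes any sechellia value over 3.5, whatever its origin. The median sechellia mean was 4.62 in the 74 and −1.01 in the 84, so the 2 outcomes cannot be weighed against each other. Among all genes, 400 of 5283 were then called higher in mauritiana and 51 higher in sechellia. Genes said below to pass with outer spots missing are to be read beside these counts. The smallest limma adjusted p was then 5.19e-06, against 0.0149 as reported. Removing values by their size changes the spread that limma uses. A lower adjusted p in this setting is therefore no further support for a gene. The main counts moved with single arrays. They were 0, 18, 5 and 1 higher in mauritiana and 0, 12, 11 and 1 higher in sechellia when mauritiana array 1, 2, 3 or 4 was left out. They were 310, 89 and 25 higher in mauritiana and 160, 116 and 42 higher in sechellia when sechellia array 1, 2 or 3 was left out. Without sechellia array 1, the genes with all mauritiana arrays above numbered 1251 (22.7% of those tested). Where a list's counts apart in another setting stand below without the share of all genes, nothing is concluded from them.

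**Figure D2:**
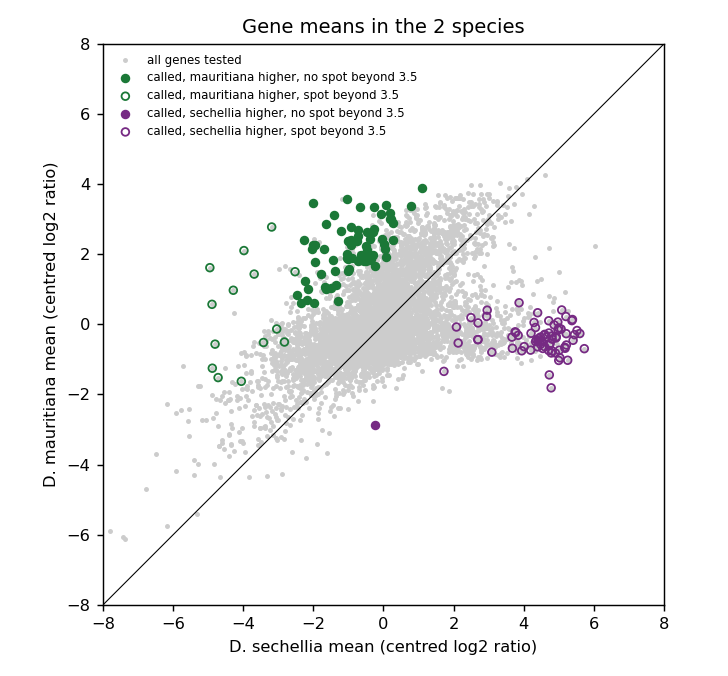
Mean centred log2 ratio of each of 5950 genes in D. sechellia (horizontal) and D. mauritiana (vertical), with the line of equal values; grey points are all genes, green and purple those called by limma, and open symbols those with a sechellia spot beyond 3.5 in size. The 84 genes higher in mauritiana lie mostly at positive mauritiana values with filled symbols, and 73 of the 74 genes higher in sechellia are open symbols.

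The genes higher in mauritiana mostly stood above the array median in mauritiana and below it in sechellia. This held for 66 of the 84, with a mauritiana mean above 0 and a sechellia mean below 0. Cand1, which regulates cullin ubiquitin ligases, stood at 1.06, 1.15, 1.47 and 2.06 on the mauritiana arrays and at −3.32, −3.94 and −3.80 on the sechellia arrays. Cand1 was thus low on each sechellia array, and its mauritiana minus sechellia difference was 5.12 ± 0.42 (SE, n = 4 and 3, limma adjusted p = 0.0149). Outer spots on 2 sechellia arrays made it untestable without them. Cdlc2, a light chain of cytoplasmic dynein, stood at 2.96, 4.00, 2.83 and 4.46 in mauritiana and at −1.70, −0.77 and −0.65 in sechellia. The groups were far apart, with a difference of 4.61 ± 0.56 (SE, n = 4 and 3, limma adjusted p = 0.0177) and no sechellia outer spot. Dpy-30L2, a relative of the histone methyltransferase subunit Dpy-30, stood at 0.69, 0.98, 0.69 and 1.52 in mauritiana and at −1.68, −5.17 and −6.01 in sechellia. Its difference of 5.26 ± 0.98 (SE, n = 4 and 3, limma adjusted p = 0.0392) included outer spots on 2 sechellia arrays and was untestable without them.

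Most of the other genes with the largest differences carry only an annotation number. Among the 84 genes, 55 have such a symbol, beside 41.5% of all genes tested. CG31226 stood at 2.64, 4.76, 2.93 and 3.48 in mauritiana and at −3.52, −0.95 and −1.59 in sechellia, a difference of 5.48 ± 0.77 (SE, n = 4 and 3, limma adjusted p = 0.0219). CG14488 stood at 1.40, 2.30, 1.70 and 1.72 in mauritiana and at −1.99, −1.87 and −2.02 in sechellia, and its 3 sechellia arrays differed by less than the mauritiana arrays did. Its difference was 3.74 ± 0.38 (SE, n = 4 and 3, limma adjusted p = 0.0149). CG1394, CG13449, CG14995 and CG11983 had differences of 4.68, 4.51, 4.54 and 4.28 without a sechellia outer spot. CG12689, CG32267 and CG14891 had the largest differences, 6.57, 6.09 and 5.97, each with outer spots on 2 sechellia arrays. With these missing the differences were 4.74, 3.71 and 3.65, and limma called all 3 again. An unnamed transcript, BG642312, differed by 5.46 with outer spots on all 3 and was untestable without them.

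The 84 genes were compared with the other 2 species as a description. The median of their gene means was 1.99 in mauritiana and −1.01 in sechellia, the values that chose them. It was 1.89 in D. melanogaster and 0.87 in D. simulans, neither of which entered the choice. The mean was above 0 for 72 of the 84 genes in melanogaster and for 60 in simulans, but for 11 in sechellia. Of all 5950 genes, 52.6% were above 0 in melanogaster and 51.0% in simulans. CG14488, for example, stood at 3.70, 3.45 and 3.38 in melanogaster and at 2.16, 2.19 and 1.05 in simulans. Dpy-30L2 was one of those above 0 in melanogaster and below 0 in simulans, with 2.67, 2.25 and 2.88 in melanogaster but −1.12, −0.95 and −1.22 in simulans. CG11983 was likewise below 0 in simulans, at −0.93, −0.85 and −1.01.

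**Figure D3:**
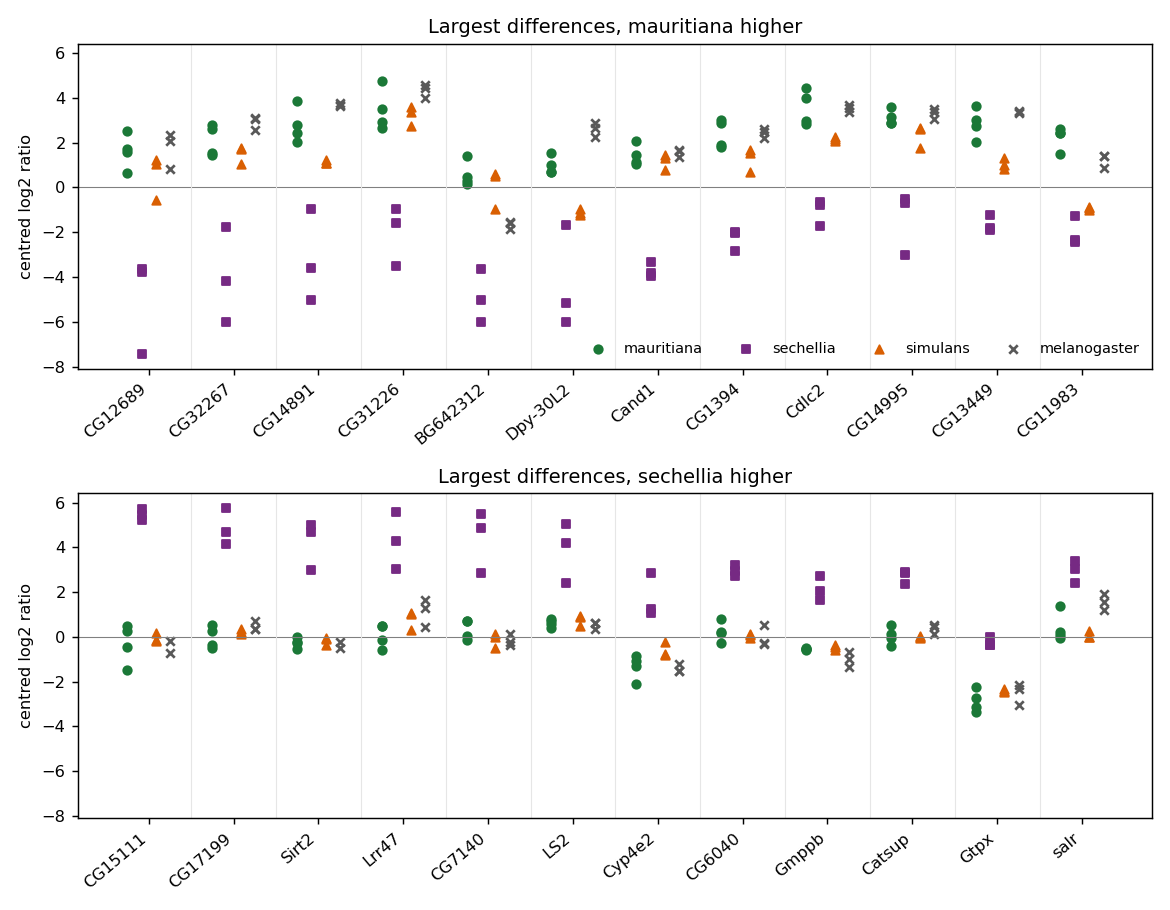
Centred log2 ratio on each array (1 symbol per array) of the 12 genes with the largest differences in either direction among those called and measured on all 7 arrays, with D. simulans and D. melanogaster beside them. In the upper panel the sechellia arrays lie below the mauritiana arrays and in most genes below the other species too (Cand1: −3.32 to −3.94 in sechellia); in the lower panel they lie above (CG15111: 5.21 to 5.71), with Gtpx near 0 and the mauritiana arrays at −3.38 to −2.24.

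Of 9 tested cup and comet genes, whose transcripts collect at the ends of elongating spermatids, 8 had a higher mean in mauritiana. Of the 9, 1 was called higher in mauritiana and none in sechellia, beside 1.41 and 1.24% of all genes. All mauritiana arrays lay above all sechellia arrays in 5 of the 9, beside 12.7% of all genes, and the list's median difference was 1.31, beside 0.22. All 9 were measured on all 7 arrays, and of all such genes 17.7% had mauritiana above. The called gene was soti, which encodes an inhibitor of a cullin ubiquitin ligase that acts in spermatid individualisation. It stood at 0.46, 1.41, 1.06 and 1.99 in mauritiana and at −1.99, −2.21 and −2.51 in sechellia, so that all sechellia arrays were low. Its difference was 3.47 ± 0.47 (SE, n = 4 and 3, limma adjusted p = 0.0206), without outer spots. Its levels of 3.34, 3.41 and 3.30 in melanogaster and of 2.92, 2.99 and 2.44 in simulans were above both. The cup and comet gene schuy stood at 3.31, 2.09, 3.66 and 4.04 in mauritiana and at −0.18, 1.26 and 1.16 in sechellia, which did not pass (difference 2.53, adjusted p = 0.0834). The third named member, h-cup, differed by 1.67, and hale and m-cup, named because they complete the 5, by 1.80 and 1.31. None of these 3 passed the test. With outer spots missing, 4 of the 9 were called higher in mauritiana (soti, schuy, hale and h-cup), beside 400 of 5283 among all genes. In that setting 5 of the 9 were apart. Sechellia array 1 gave the lowest median of the list, −0.11, against 1.77 and 1.16 on sechellia arrays 2 and 3 and 1.06 to 2.55 in mauritiana. Without it 5 of the 9 were apart with mauritiana above, beside 1251 of 5517 among all genes, and 1 the other way, and the list's median was 1.07. Without mauritiana array 1, 2, 3 or 4 none of the 9 was called.

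The 8 testis-biased paralogs of proteasome subunits had a median difference of 1.26. In 4 of them all mauritiana arrays were above (12.7% of all genes), and none lay apart the other way. All 8 were measured on all 7 arrays, and of all such genes 17.7% had mauritiana above. Prosbeta4R2, a core particle paralog, stood at 1.39, 2.30, 1.75 and 2.54 in mauritiana and at −0.31, −0.64 and −0.43 in sechellia. It was the only called member (1.41% of all genes were called higher in mauritiana), with a difference of 2.45 ± 0.42 (SE, n = 4 and 3, limma adjusted p = 0.0309). Without mauritiana array 1, 2, 3 or 4, or without sechellia array 2 or 3, no member was called higher in mauritiana. Prosbeta5R1, Prosalpha4T2 and Prosbeta2R1 were apart without passing the test, with differences of 2.41, 1.78 and 1.20. Rpt4R, from the regulatory particle, differed by −2.28 with overlapping arrays. With outer spots missing, Prosbeta5R1 and Prosalpha4T2 passed too (adjusted p = 0.0153 and 0.0261), and Rpt4R passed with sechellia higher (difference −2.01, adjusted p = 0.0231). Of 21 general proteasome genes, 0 were called and 3 had an unadjusted p under 0.05. In 4 of the 21 all mauritiana arrays were above, not far from the 12.7% of all genes and the 17.7% of genes on all 7 arrays. In 0 of them all sechellia arrays were above, and the median difference was 0.83. The largest of these was that of Prosbeta3, a core subunit, at 2.76 with an adjusted p of 0.0876, which was 0.00177 with outer spots missing.

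Other classes of late germline genes held no called gene. None of 6 late spermatid genes was called or apart, and their median level was 1.43 to 2.45 on the mauritiana arrays and −0.09, 1.59 and 1.42 on sechellia arrays 1, 2 and 3. The 3 sperm leucyl aminopeptidases tested, S-Lap5, S-Lap7 and S-Lap8, had a list median above 0 on every array of both species. They differed by 0.12, 0.65 and 0.16 with overlapping arrays. The sperm tail gene dj had a difference of 1.99 with an adjusted p of 0.184, and its lowest mauritiana array, at 0.68, lay below its highest sechellia array, at 0.87. Of 11 axonemal and motility genes 0 were called, 2 had an unadjusted p under 0.05, and 2 were apart with mauritiana above. These were Tektin-C, a structural protein of the sperm tail, and sw, a dynein intermediate chain, with differences of 1.52 and 2.46 and adjusted p-values of 0.197 and 0.0709. With outer spots missing these were 0.0367 and 0.00441, and that of dj was 0.018.

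The 23 tested genes of cytoplasmic ribosomal proteins had list medians of −0.76 to −0.39 on the mauritiana arrays and of −1.66 to −1.13 on the sechellia arrays. Of these 0 were called, though 7 had an unadjusted p under 0.05. In 8 of the 23 all mauritiana arrays were above and in 1 all sechellia arrays, beside 12.7 and 11.4% of all genes, and the median difference was 0.96. RpL27, a protein of the large subunit, stood at −2.52, −1.54, −3.82 and −3.13 in mauritiana and at −5.67, −5.02 and −6.06 in sechellia, with outer spots on all 3 sechellia arrays (untestable without them) and an adjusted p of 0.0628. RpS10a, of the small subunit, stood at 0.20, 0.11, −0.01 and 0.50 and at −1.26, −0.90 and −1.44, with no outer spot and an adjusted p of 0.102, or 0.0318 once the outer spots of other genes were missing. The pattern depended on scaling and on the arrays: after quantile normalization 1 was apart with mauritiana above and 3 the other way. Without sechellia array 1 the counts were 13 and 0 of 21, where 1251 of 5517 among all genes had mauritiana above. Leaving out sechellia array 2 gave 8 and 3 of 22 and a median of 0.45.

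Mitochondrial genes had both directions. Of 40 oxidative phosphorylation genes 1 was called (1.24% of all genes were called higher in sechellia). This was Cyt-c1L, a paralog of cytochrome c1 with a mauritiana minus sechellia difference of −4.15 (sechellia 3.84 ± 0.97, mauritiana −0.31 ± 0.15, SD, n = 3 and 3, limma adjusted p = 0.0255) with outer spots on all 3 sechellia arrays. With these missing its difference was −1.33 (adjusted p = 0.126). All mauritiana arrays were above in 11 (12.7% of all genes) and all sechellia arrays in 4, near the 11.4% of all genes. COX6CL, a paralog of a cytochrome c oxidase subunit, stood at 2.40, 3.08, 2.49 and 2.54 in mauritiana and at −0.54, 0.62 and 1.24 in sechellia (adjusted p = 0.0748). ND-13A and ND-15, subunits of complex I, differed by 1.75 and 2.68 with adjusted p-values of 0.0806 and 0.0911. COX6CL, ND-13A and ND-15 passed with outer spots missing (adjusted p = 0.00363, 0.0111 and 0.00235). The list's median of 0.58 turned to −0.06 after quantile normalization, and it was 0.19 without mauritiana array 4. Of 42 mitochondrial ribosomal proteins 1 was called (1.24% of all genes higher in sechellia), mRpL13, with a difference of −5.83 on 2 arrays of each species, each sechellia array with an outer spot and untestable without them. The list was apart with mauritiana above in 8 and with sechellia above in 4, near the shares of all genes (12.7 and 11.4%), and its median difference was 0.30.

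The genes higher in sechellia mostly showed values near the array median in mauritiana and far above it in sechellia. CG15111 stood at −0.44, 0.47, 0.28 and −1.49 in mauritiana and at 5.71, 5.21 and 5.43 in sechellia, a difference of −5.74 ± 0.55 (SE, n = 4 and 3, limma adjusted p = 0.0149). CG17199 stood at −0.35, 0.53, −0.49 and 0.26 and at 4.69, 5.75 and 4.16, a difference of −4.88 ± 0.52 (SE, n = 4 and 3, limma adjusted p = 0.0149). In both, all 3 sechellia arrays had an outer spot, and neither was testable without them. Sirt2, an NAD-dependent deacetylase, stood at −0.28, 0.02, −0.24 and −0.52 and at 2.98, 4.98 and 4.67, and LS2, a testis-expressed relative of a splicing factor, at 0.81, 0.70, 0.40 and 0.57 and at 5.03, 4.18 and 2.39. Sirt2 had outer spots on all 3 sechellia arrays and was untestable without them, and LS2, with outer spots on 2, then differed by −1.45 (adjusted p = 0.0655). Lrr47, CG7140, CG6040, Gmppb, which makes GDP-mannose, and salr, a zinc finger transcription factor, followed with differences of −4.24, −4.07, −2.72, −2.66 and −2.55. Of these 5, all but CG6040 had outer spots on all 3 sechellia arrays. Without outer spots Lrr47 and CG7140 were untestable, CG6040 differed by −2.0 (adjusted p = 0.0188), Gmppb by −0.91 (0.297) and salr by −0.16 (0.876). In melanogaster and simulans the 74 genes had median levels of −0.38 and 0.04, near the −0.41 of mauritiana, and sechellia had 4.62.

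Gtpx, a thioredoxin-dependent peroxidase, was the 1 gene higher in sechellia with no sechellia outer spot. It stood at −3.14, −2.75, −3.38 and −2.24 in mauritiana and at 0.01, −0.37 and −0.34 in sechellia. It was therefore far below the array median in mauritiana and near it in sechellia, with a difference of −2.64 ± 0.42 (SE, n = 4 and 3, limma adjusted p = 0.0255). In melanogaster it stood at −2.34, −2.13 and −3.03 and in simulans at −2.31, −2.47 and −2.44, on the side of mauritiana.

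Cytochrome P450 enzymes oxidise hormones, toxins and food compounds. The P450 list, matched by symbol, had 63 tested genes, among them Cyp40, which is not a P450 gene, and the pseudogene Cyp6a16Psi. Of the 63, 3 were called higher in sechellia and 1 higher in mauritiana, beside 1.24 and 1.41% of all genes. All sechellia arrays were above in 18 and all mauritiana arrays in 2, beside 11.4 and 12.7% of all genes, with a median difference of −0.93. Only 34 of the 63 were measured on all 7 arrays, and of all such genes 5.02 and 17.7% were apart in these directions. Cyp4e2 stood at −1.29, −0.87, −2.10 and −1.10 in mauritiana and at 2.86, 1.26 and 1.05 in sechellia (difference −3.07 ± 0.57, SE, n = 4 and 3, limma adjusted p = 0.0392). Cyp12b2 stood at −0.26, 0.18, 0.18 and 0.67 and at 2.08, 2.43 and 2.98, and Cyp313a5, named to complete the 3, had a sechellia mean of 4.59 against −0.31. Cyp6d5 was the call in the other direction, at 2.27, 1.66, 2.30 and 3.23 in mauritiana and at −0.50, −2.30 and −0.15 in sechellia (difference 3.35 ± 0.65, SE, n = 4 and 3, limma adjusted p = 0.043). Outer sechellia spots were present in 55 of the 63 genes. With these missing, 3 of 51 were called higher in mauritiana and 0 in sechellia, beside 400 and 51 of 5283 among all genes. Of the 51 list members, 5 and 8 were apart, and the median was −0.17. The difference in Cyp12b2 turned to 0.35 and that in Cyp4e2 shrank to −0.17 (adjusted p = 0.852), Cyp313a5 was untestable, and Cyp6d5 remained called at 2.50. With 1 row per gene Cyp4e2 differed by −0.045. Without sechellia array 1, where the median P450 level was 1.20 against −0.19 and 0.11 on the other 2, the counts apart were 10 with mauritiana above and 15 with sechellia above. Among all genes 1251 of 5517 then had mauritiana above. In the list 2 and 6 were called, beside 310 and 160 of 5517 among all genes, and the list's median was −0.17. None of the 3 was called without sechellia array 3 or without mauritiana array 1, 2, 3 or 4.

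Of 20 glutathione S-transferases, 2 were called higher in sechellia, beside 1.24% of all genes. GstD8 stood at −0.44, −0.08 and 0.72 on 3 mauritiana arrays and at 5.55 and 4.40 on 2 sechellia arrays, and GstD5 was measured on 2 arrays of each species, at −0.75 ± 0.02 and 3.95 ± 0.15 (SD). Neither was testable without outer spots. In 7 of the 20 all sechellia arrays were above (11.4% of all genes) and in 2 all mauritiana arrays (12.7%), and 8 had a sechellia outer spot. Of the 20, 11 were measured on all 7 arrays. With outer spots missing the counts apart were 3 and 2 of 17, and GstD9 and GstZ2, named after their values were seen, were called higher in sechellia. Without sechellia array 1, or mauritiana array 1, 2, 3 or 4, none of the 20 was called, and without sechellia array 2 or 3 it was 1. Catsup, which limits catecholamine synthesis and is known from work on the host plant use of sechellia, stood at −0.07, 0.53, −0.42 and 0.12 in mauritiana and at 2.37, 2.90 and 2.83 in sechellia. Its difference of −2.66 ± 0.40 (SE, n = 4 and 3, limma adjusted p = 0.0242) rested on outer spots on all 3 sechellia arrays and was −0.31 without them (adjusted p = 0.69). With 1 row per gene it turned to 0.32. Of 13 chemosensory genes 0 were called, 3 had an unadjusted p under 0.05, and 11 had a sechellia outer spot. In 3 of them all sechellia arrays were above (11.4% of all genes) and in 1 all mauritiana arrays (12.7%).

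Regulators of the germline mostly overlapped, and the counts apart are to be read beside 12.7% of all genes with mauritiana above and 11.4% with sechellia above. Of 12 genes of male meiosis 0 were called, 2 had an unadjusted p under 0.05, and 2 were apart in each direction, near those shares. The cyclin inhibitor rux, a regulator of the second meiotic division, stood at 2.26, 1.96, 2.96 and 3.42 in mauritiana and at 0.08, 0.74 and 0.33 in sechellia (difference 2.27 ± 0.48, SE, n = 4 and 3, limma adjusted p = 0.0581, or 0.00235 with outer spots missing). The cohesion protector mei-S332 was also higher on every mauritiana array, by 1.02, while tef, needed for pairing of autosomes in male meiosis, was lower on each, by −1.17. Of 16 piRNA pathway genes, which silence transposons, 0 were called and 3 had an unadjusted p under 0.05. The Tudor protein papi, with 2.60, 2.55, 2.62 and 3.59 in mauritiana and −0.59, 1.24 and 1.20 in sechellia, and the methyltransferase Hen1 were apart with mauritiana above, and both passed with outer spots missing (adjusted p = 0.00505 and 0.0185). The Piwi protein gene aub and Gasz, the latter named to complete the 4, were apart the other way, by −0.34 and −1.37. With outer spots missing aub differed by −0.31 and Gasz by only −0.51 (limma adjusted p = 0.678 and 0.545). Among 8 regulators of spermatocyte transcription 1 was apart, mip40, with a difference of 1.36 and an adjusted p of 0.163, or 0.0465 with outer spots missing. In the early germline, bam, the switch from spermatogonial division to differentiation, was apart with sechellia above (difference −2.59), and Rbfox1 with mauritiana above (0.95), and neither passed. Without outer spots bam differed by −1.64 and passed (adjusted p = 0.0341). Of 5 genes known from hybrid incompatibility between these species groups 0 were called and 1 had an unadjusted p under 0.05. Hmr was apart with sechellia above, at −1.25, −0.36, −0.18 and −1.09 in mauritiana and −0.04, 0.38 and 0.08 in sechellia, and so was Nup160, on 2 arrays of each species, untestable without outer spots.

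**Figure D4:**
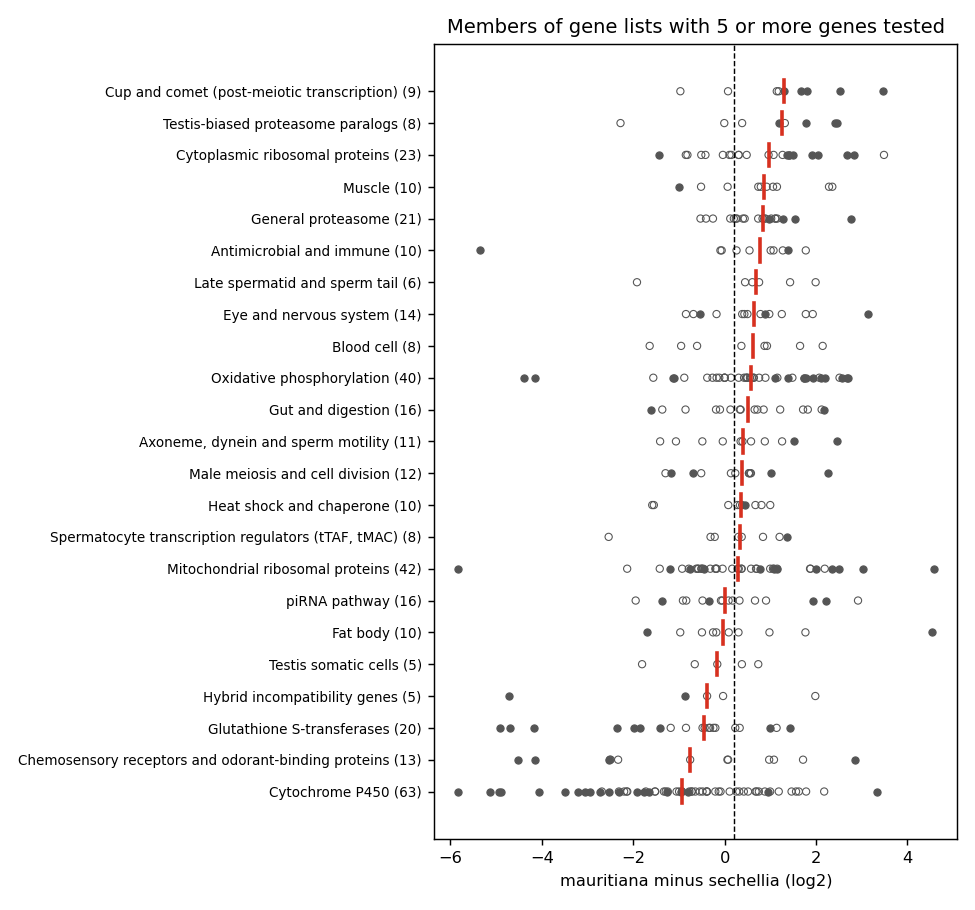
Mauritiana minus sechellia difference (log2) of each tested member of the gene lists with 5 or more tested genes (number in brackets); filled points are genes whose arrays do not overlap between the species, red bars are list medians, and the dashed line is the median of all genes (0.22). The cup and comet list (median 1.31) and the testis-biased proteasome list (1.26) lie highest, and the cytochrome P450 list (−0.93) lies lowest.

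Markers of other organs checked the tissue label. Gut, muscle and eye genes had list medians below 0 on all 7 arrays, and late spermatid genes had medians above 0 on all but sechellia array 1 (−0.09). The blood cell list was not below 0 throughout, with a median of 0.03 on mauritiana array 1. The accessory gland, which makes seminal proteins and was dissected away, gave a difference. Its 4 markers had a median level of −1.75 to −0.60 on the mauritiana arrays and −4.56 to −3.31 on the sechellia arrays. This median was −4.29 to −3.74 on the melanogaster arrays and −3.36 to −2.61 on the simulans arrays. Every mauritiana array thus lay above the arrays of the other species, and sechellia lay on the side of melanogaster and simulans. Acp53C14a stood at −1.03, −1.83, −1.48 and −0.67 in mauritiana and at −6.05, −3.98 and −4.62 in sechellia, and Acp53Ea at −1.72, −0.38, −2.41 and −1.56 and at −5.50, −4.33 and −4.33. Both were called higher in mauritiana, beside 1.41% of all genes (differences 3.63 ± 0.59 and 3.20 ± 0.59, SE, n = 4 and 3, limma adjusted p = 0.0263 and 0.037). Both had outer spots on all 3 sechellia arrays and were untestable without them. Neither was called without mauritiana array 1, 2, 3 or 4 or without sechellia array 3. In melanogaster and simulans, Acp53C14a stood at −4.03 to −3.76 and at −3.65 to −3.40, below every mauritiana array. Acp53Ea stood at −4.56 to −3.71 in melanogaster, also below mauritiana, and at −3.07 to −1.81 in simulans, which overlapped with mauritiana. Acp32CD and Acp36DE differed by −0.33 and 1.27 with overlapping arrays. The part of accessory gland RNA in the other differences was not tested. No gene was called in the blood cell, fat body, muscle, gut, eye and nervous system, heat shock, immune, tubulin or testis soma lists, where between 0 and 3 genes of a list had an unadjusted p under 0.05.

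The hybrids gave a second comparison on separate arrays. Sons of D. simulans mothers by mauritiana fathers (3 arrays) were set against sons of D. simulans mothers by sechellia fathers (3 arrays), all from the same kind of testis pool; hybrid males of these crosses are known to be sterile. The arrays are not those of the species comparison, but the reference RNA and the spots are the same. Sechellia hybrid array 2 correlated at only 0.36 and 0.41 with the other 2 of its group, which correlated at 0.83, and sechellia hybrid arrays 1 and 2 had values on 13019 and 13199 rows, against 20891 to 26496 on the other 4. Of 5338 genes 622 were called (11.7%), 581 higher in the mauritiana hybrid (10.9%) and 41 higher in the sechellia hybrid (0.768%). This count was 750, 109 and 192 without mauritiana hybrid array 1, 2 or 3, and 293, 1160 and 274 without sechellia hybrid array 1, 2 or 3. All 84 genes higher in mauritiana were tested in the hybrids, and 77 of them (91.7%) were higher in the mauritiana hybrid, beside 58.2% of the 5095 genes tested in both. The 2 hybrids' arrays did not overlap in the same direction in 57 of the 84 and in the opposite direction in 0, beside 23.6 and 13.4% of all genes. With any 1 hybrid array left out, 90.1 to 93.5% of the tested members were higher in the mauritiana hybrid, beside 55.8 to 65.7% of all genes tested between the hybrids. Among the 69 of these genes without a sechellia outer spot, 66 were higher in the mauritiana hybrid and 49 were apart. The median levels of the 84 were 0.68 in the mauritiana hybrid and −0.92 in the sechellia hybrid, against 1.99 and −1.01 in the species.

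Cand1 stood at 1.23, 1.71 and 2.06 in the mauritiana hybrid and at −3.77, −4.01 and −3.61 in the sechellia hybrid, a difference of 5.47 ± 0.40 (SE, n = 3 and 3, limma adjusted p = 1.16e-04), beside 5.12 between the species. CG31226 stood at 2.47, 3.08 and 3.14 and at −2.27, −3.04 and −2.24, a difference of 5.41 beside 5.48. For soti the values were 0.82, 2.71 and 2.66 and −1.17, −2.64 and −1.46, a difference of 3.82 beside 3.47. In these 3 genes the hybrid and species differences lay within their standard errors of each other. CG14891 did not, with −0.60, −0.47 and −0.88 in the mauritiana hybrid and 0.23, −0.48 and −0.25 in the sechellia hybrid, and Dpy-30L2 differed by −0.79 with overlapping arrays. Of the cup and comet genes 6 of 9 were called higher in the mauritiana hybrid, of the testis-biased proteasome paralogs 4 of 8, and of the general proteasome genes 10 of 20, beside 10.9% of all genes, with none called the other way.

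Of the 74 genes higher in sechellia only 27 could be tested in the hybrids, and 23 of these (85.2%) were higher in the sechellia hybrid, beside 41.8% of all genes. Their median hybrid difference was −0.53, against −4.97 for all 74 between the species. In 10 of the 27 the hybrid arrays were apart the same way (13.4% of all genes) and in 3 the opposite way (23.6%). Gtpx was among the former, at −1.68, −1.37 and −2.58 in the mauritiana hybrid and −0.23, 0.23 and −0.57 in the sechellia hybrid (difference −1.69 ± 0.45, SE, n = 3 and 3, limma adjusted p = 0.0328). CG15111, at −5.74 between the species, differed by −1.30 between the hybrids, where each kind had 2 arrays with a value. A test of whether the hybrid difference departed from the species difference called 0 of 5095 genes in limma, with 579 at an unadjusted p under 0.05.

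**Figure D5:**
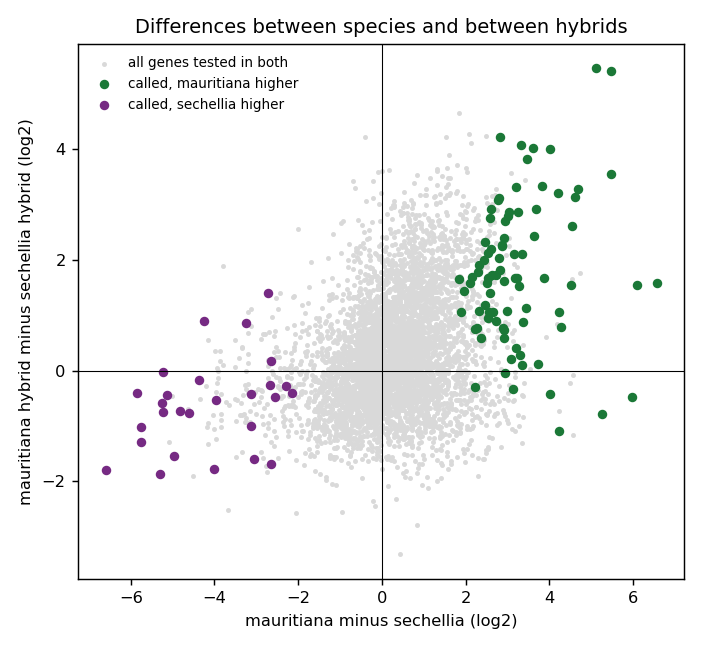
Mauritiana minus sechellia difference between the species (horizontal) and between the hybrids sired by them (vertical), in log2 units; grey points are the 5095 genes tested in both, green and purple points the genes called between the species. Of the 84 green points 77 lie above 0, and of the 27 purple points 23 lie below 0.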

How the data were processed

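The deposited table holds 1 value per spot and array, taken as log2 ratios of testes (Cy5) over whole D. melanogaster males (Cy3). The log base is inferred, and the authors' within-array normalization, scanner and background treatment are not given in the sources used here. Per the labels, the Canadian Drosophila Microarray Centre labelled and hybridised the RNA. Arrays held 27648 rows, of which 15116 carried 1 gene symbol in the platform annotation, 102 several and 12430 were not listed. The mauritiana arrays had values on 13326 to 20638 rows and the sechellia arrays on 22824 to 23753.

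From these values, exact zeros (53, 2703 and 2526 on the sechellia arrays) were set to missing, the median over rows with 1 symbol was subtracted from each array, and rows of a gene were averaged. Genes with at least 2 arrays of each species were fitted on the 7 arrays with limma (version 3.58.1, R version 4.3.3, lmFit then eBayes) and called where the p adjusted by Benjamini-Hochberg was under 0.05. The hybrids were fitted alike, and the difference of differences on all 13 arrays. The labels do not say whether replicates came from separate cultures, so p-values cover only the spread among these samples, which may be technical, and precision is limited by the number of arrays. The fit was also run on simulated data, in which the residuals of each array were shuffled across genes. The shuffling does not keep the spread particular to each gene, so no conclusion is drawn from it here.

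The comparison and the 29 gene lists, of which 28 had a tested gene (the Y-linked list had none), were chosen with earlier results of these data known. The genes named were the 12 with the largest differences in each direction among those called without overlap on all 7 arrays, the 6 with the smallest p, and up to 3 of each list without overlap on all 7 arrays (otherwise the member with the smallest p). Genes that complete a small count were named after their values were seen. The alternatives were zeros kept, no centring, arrays scaled to 1 spread, quantile normalization, genes on all 7 arrays, 1 row per gene, rows within 1 log2 unit, the spread from all 22 arrays, array weights, a replicate block, a 2-fold minimum, and each array left out. Values over 3.5 in size set to missing, and centring on the tested genes, were added after seeing the data. Sequences were not used here.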

Additional observations from a re-analysis of the deposited data

Results flagged for a closer look

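Of 70 named genes with values on all 4 mauritiana arrays, 5 had 1 mauritiana array far from the other 3, a gap that chance gives in about 1 of 20 groups. Mauritiana array 4 stood apart for Jon99Fi, a gut protease (−4.71, against −3.60 to −3.37 on the others), for ND-15 (2.46, against 0.23 to 0.53), for mei-S332 (2.74, against 1.55 to 1.70) and for papi (3.59, against 2.55 to 2.62). Mauritiana array 2 stood apart for S-Lap7 (0.32, against 2.78 to 3.18).

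In 3 genes that were higher on every sechellia array than on every mauritiana array, the hybrids lay apart the opposite way, with the mauritiana hybrid higher. The mauritiana hybrid minus sechellia hybrid difference was 1.41 for CG6040, 0.87 for LS2 and 0.91 for Lrr47, where the species differed by −2.72, −3.25 and −4.24. The sechellia hybrid had values on 2 arrays in each of the 3 genes. The limma test of the difference between the hybrid and the species comparison did not pass in them (adjusted p = 0.0729, 0.0742 and 0.0608). All 3 had outer spots on at least 1 sechellia array.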

How the results depend on the processing

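The numbers of genes called depended on the fit. Pairs of counts below are genes higher in mauritiana and genes higher in sechellia, 84 and 74 as reported. They were 84 and 36 with zeros kept, 131 and 84 with arrays scaled to 1 spread, and 253 and 132 after quantile normalization, where the median of all genes moved by −0.34. They were 188 and 32 of the 3866 genes on all 7 arrays, 93 and 48 with 1 row per gene, and 196 and 18 of 3459 genes with rows within 1 log2 unit. They were 766 and 592 with the spread from all 22 arrays, 147 and 179 with array weights, and 8 and 13 against a 2-fold minimum. With values over 3.5 in size missing they were 400 and 51 of 5283. Leaving out 1 array gave 0 to 310 and 0 to 160. Without centring (92 and 80) and with centring on the tested genes (89 and 76) they moved little. The share called higher in mauritiana was 53.2% as reported and between 31.2 and 91.6% where any gene was called.

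Genes apart with sechellia above numbered 194 on all 7 arrays and 361 with rows within 1 log2 unit, and 644 to 969 with 1 array left out; those with mauritiana above numbered 784 to 1251 with 1 array left out. The deviations of same-numbered arrays correlated at 0.06, −0.19 and 0.07, and those of differently numbered arrays at −0.37 to 0.28. With so few arrays these values cannot tell whether the replicate numbers paired the samples. With the replicate number as a block, limma called 0 and 0 genes, with 706 at an unadjusted p under 0.05. Between the hybrids the count was 926 with the block and 109 to 1160 with 1 array left out.

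Direction turned in 4 named genes: Catsup with 1 row per gene (0.32), Cyp12b2 with values over 3.5 in size missing (0.35), and Hsp26 (−0.039) and Jon65Aiv (−0.15) after quantile normalization. The cause was not tested. Cand1 kept its direction in the 19 alternatives that could fit it, at 3.99 to 5.31, but could not be tested with values over 3.5 in size missing. No alternative separates RNA level from the match of a species' RNA to the spots.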
